A study of Bos taurus with 8 samples.

Results

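The 37 genes described here build, anchor or switch on the contractile apparatus of smooth muscle. They were taken by symbol from a table of 33132 genes, and all 37 were found in it. The 4 steers were adult castrated males and the 4 calves newborn males, all angus crosses, and 1 RNA library was made from the rumen tissue of each animal. Steers differed from calves in age and castration at once, so these cannot be told apart, and no label gives diet, batch or which layers of the rumen wall were taken. The series asks which genes and regulators accompany rumen growth after birth, which here means setting steers against calves.

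The rumen wall carries muscle coats beneath its epithelium, and their contractions mix and move the feed. Smooth muscle shortens when calcium switches on myosin light chain kinase, and myosin heads then pull on actin filaments that are fixed to dense bodies, adhesion sites and a mesh of desmin. The transcription factor SRF and its partner myocardin drive many of these genes. Visceral muscle is known for gamma-actin (ACTG2), and muscle of blood vessels for alpha-actin (ACTA2). In bulk tissue, fewer cells of a type and less RNA per cell cannot be told apart.

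Levels are CPM, the counts of a gene scaled to a common library total, with library sizes adjusted by TMM, which sets aside the most extreme genes. Changes are log2 of steer over calf from edgeR's quasi-likelihood test over 16326 genes, and a gene was called where its p, adjusted by Benjamini and Hochberg's method, was below 0.05. Of the 37 genes, 35 passed the filter on low counts. The remaining pair hardly had reads. SYNPO2, an actin-binding partner of filamin, had 0, 10, 51 and 21 counts in steers 1 to 4, against 5 or fewer in each calf, but 96.3% of its counted span lies in other genes and such reads were dropped. CASQ2, a calcium-binding protein of the sarcoplasmic reticulum, had 1 count in all steers together and 10 in all calves.

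Steer 4 stood apart from the other steers in the summed counts of these genes, but not in every gene. DES had 4482 CPM in steer 4, against 24672 to 54578 CPM in the other steers. In some other genes steer 1 was nearly as low as steer 4. MYLK, for example, had 718 and 663 CPM in steers 1 and 4, against 2169 and 2295 CPM in steers 2 and 3. Together the 37 genes took 8.23%, 16.5%, 10.3% and 2.20% of all counts in steers 1 to 4, against 3.22%, 3.57%, 1.44% and 2.75% in calves 1 to 4. Steer 4 was the lowest steer for 32 of the 35 tested genes, and it lay within the range of the calves for 23 of them, above all calves for 3 (SYNM, CALD1 and MYH11) and below all calves for 9. The highest steer was steer 2 for 28 genes and steer 3 for the other 7. Among calves, calf 3 was the lowest for 25 genes. No share over all tested genes is at hand for these orders, so whether they are particular to these genes was not tested. Several epithelial markers moved the other way in steer 4, while others were low there as well. Of the 12 tested markers of basal epithelium, steer 4 was the highest steer for 7 and the lowest for 3, the keratins KRT5, KRT14 and KRT15. KRT15 had 2222 CPM in steer 4, against 3768 to 7223 CPM in the other steers. KRT5 had 2646 CPM, against 3467 to 3932 CPM, and KRT14 1983 CPM, against 2548 to 3244 CPM. The summed basal markers were also lowest in steer 4 among the steers, at 12120 CPM, against 12418 to 17828 CPM. The desmosome protein DSP had 2001 CPM in steer 4, against 354 to 763 CPM in the other steers and 1222 to 2037 CPM in calves. PERP, also of desmosomes, had 1344 CPM in steer 4, against 345 to 700 CPM in the other steers and 651 to 945 CPM in calves. The adhesion proteins CDH1 and EPCAM had 51.7 and 69.9 CPM in steer 4, and at most 7.10 and 34.5 CPM in the other steers. The part of tissue make-up in the low muscle genes of steer 4 was not tested. Changes are given with all libraries and also without steer 4, as chosen after the values were seen.

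**Figure D1:**
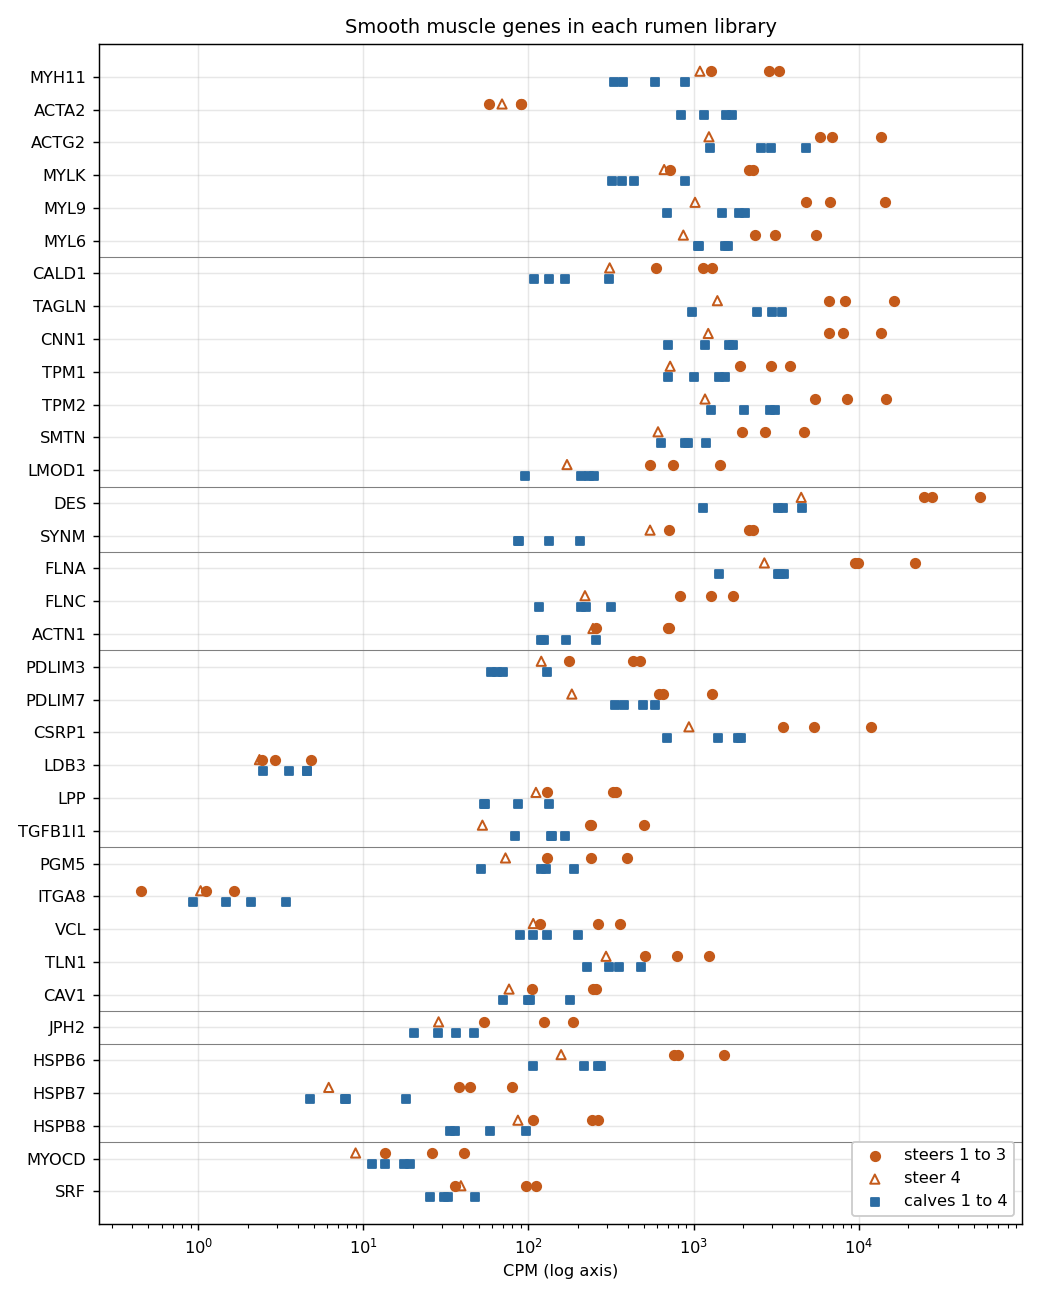
CPM of the 35 tested genes in every library on a log axis, grouped by role from actin and myosin (top) to transcription factors (bottom), with steers 1 to 3 as filled circles, steer 4 as an open triangle and calves as squares. Steers 1 to 3 lie to the right of all calves for 25 genes, and ACTA2 is the only gene with every steer left of every calf.

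Of 35 tested genes, 12 were called higher (34.3%, against 7.70% of all tested genes) and 1 lower (2.86%, against 9.16% of all tested genes), while 22 were not called. In either direction 16.9% of all tested genes were called. Those higher were MYH11, CALD1, CNN1, LMOD1, DES, SYNM, FLNA, FLNC, ACTN1, PDLIM3, HSPB6 and HSPB8, and ACTA2 was lower. The median log2 change was 1.54, against 0.04 over all tested genes. Of the 35 fitted changes 32 were above 0, against 8560 of the 16326 over all tested genes. All 4 steers lay above all 4 calves for SYNM, CALD1 and MYH11 (3 genes, 8.57%, against 10.5% of all tested genes), a share near the background. They lay below them for ACTA2 (1 gene, 2.86%, against 12.8% of all tested genes). Steers 1 to 3 lay above all calves for 25 genes (71.4%, against 14.6% of all tested genes). Without steer 4 the count called higher was 26 (8.85% of all genes tested there) and the median change 1.78. With library size alone in place of TMM, the whole table gave 835 genes higher and 1555 lower, against 1257 and 1495 here. There 8 of the 35 genes were called higher (5.11% of all genes), with a median change of 1.37 over the 35 genes and -0.07 over all. DESeq2 called 22 of them higher (11.9% of all genes).

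Calls depended on single libraries for all but 4 genes. DES, SYNM, CALD1 and ACTA2 were called whichever library was left out. MYH11 and PDLIM3 lost their calls without steer 3, calf 1, calf 3 or calf 4. FLNC, HSPB8 and ACTN1 lost theirs without steer 2, steer 3, calf 1, calf 3 or calf 4, and CNN1 without steer 2 or any 1 of the calves. FLNA, LMOD1 and HSPB6 were called only with all libraries and without steer 4. In these fits the direction of the 13 called genes was kept, and without steer 2 the log2 change was 1.37 for FLNA, 1.33 for LMOD1 and 1.43 for HSPB6.

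**Figure D2:**
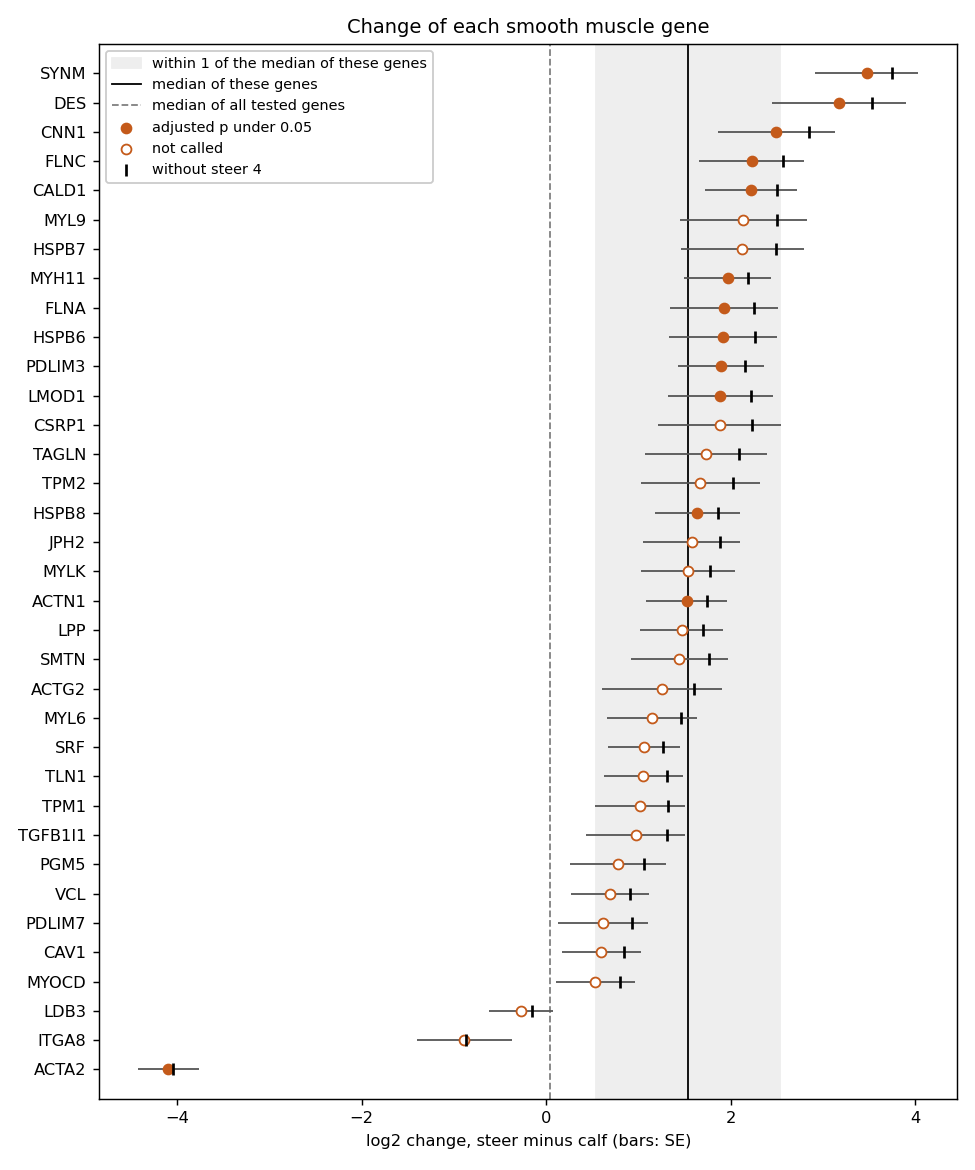
Log2 change, steer minus calf, of the 35 tested genes with SE bars, filled where called, and black ticks for the change without steer 4. The solid line is the median of these genes (1.54), the dashed line that of all tested genes (0.04), and the grey band spans 1 on the log2 scale to each side of the solid line.

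Actins gave the clearest departure. ACTA2 (chromosome 26, 10626812 to 10679430, minus strand; coordinates follow the deposited counts, with the build not given in the labels or headers) encodes smooth muscle alpha-actin. It had 89.8, 90.7, 57.8 and 69.2 CPM in steers 1 to 4, against 1697, 1562, 834 and 1162 CPM in calves 1 to 4. Every steer was far below every calf, and the highest steer had 1.57 times the level of the lowest. ACTA2 fell by 4.10 ± 0.33 on the log2 scale (SE, edgeR adjusted p = 0.000121), and by 4.05 without steer 4.

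ACTG2 (chromosome 11, 10737086 to 10761240, minus strand) encodes the gamma-actin of visceral muscle. Its levels were 6865, 13561, 5804 and 1238 CPM in steers 1 to 4, against 4767, 2545, 1261 and 2934 CPM in calves 1 to 4. Steers 1 to 3 were above all calves, while steer 4 was just below the lowest calf. The log2 change was 1.26 ± 0.65 (edgeR adjusted p = 0.217), and 1.61 without steer 4 (adjusted p = 0.0506). The highest steer had 11 times the ACTG2 of the lowest, so ACTA2 did not follow the other actin from steer to steer.

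ACTA2 took 1.29%, 0.665%, 0.985% and 5.29% of the counts of both actins in steers 1 to 4, against 26.3%, 38.0%, 39.8% and 28.4% in calves 1 to 4. The mean share was 2.06% ± 2.17 in steers and 33.1% ± 6.80 in calves (SD, n = 4 each). The highest steer share was that of steer 4, whose ACTG2 was lowest. The genes share sequence, and no source used here says how a read that fits both was assigned, so the split between them is uncertain to an extent not measured here. With both genes summed into 1, the log2 change was 0.73 (edgeR adjusted p = 0.460), which is not called. The ACTA2 span shares 1.5% of its length with FAS, and that of ACTG2 14.6% with an uncharacterised locus.

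The actins of striated muscle went separate ways as well, at low levels. ACTC1, cardiac alpha-actin, had no count in any steer and 2.38, 0.234, 0.505 and 0.544 CPM in calves 1 to 4. It was at least 13.7-fold lower in steers with a floor of 3 counts set for each steer library, and at least 6.41-fold lower without calf 1, which held the highest level. ACTA1, skeletal alpha-actin, had 10.1, 32.9, 24.9 and 4.84 CPM in steers, against 1.77, 4.52, 2.23 and 5.61 CPM in calves, and the groups overlapped through steer 4 and calf 4. Its log2 change was 2.36 ± 0.61 (edgeR adjusted p = 0.0263), a call lost without steer 2, steer 3, calf 1 or calf 3 and with limma-voom. Both share sequence with ACTA2 and ACTG2. Of the 17 tested striated muscle markers 2 rose (11.8%, against 7.70% of all tested genes) and 5 fell (29.4%, against 9.16%). The striated muscle markers summed to 48.1 to 295 CPM in steers and 85.4 to 208 CPM in calves. TNNI2, the inhibitory troponin of fast skeletal muscle, had 0.0559 to 0.450 CPM in steers and 17.0 to 64.6 CPM in calves. TNNT3, fast troponin T, had 5.05 to 11.9 CPM in steers and 25.9 to 57.7 CPM in calves. Both fell (edgeR adjusted p = 0.000316 for TNNI2 and 0.00163 for TNNT3) and were called whichever library was left out. The skeletal heavy chain MYH1 and the muscle-determining factors MYOD1, MYF5 and MYF6 were at 0 in all libraries.

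Among the myosin genes, MYH11 rose in steers. MYH11 (chromosome 25, 14124960 to 14252447, minus strand), the heavy chain of smooth muscle myosin, had 1275, 2860, 3277 and 1092 CPM in steers 1 to 4, against 580, 892, 374 and 328 CPM in calves 1 to 4. Every steer, steer 4 included, was above every calf. The log2 change was 1.97 ± 0.47 (edgeR adjusted p = 0.0194). Of its span, 15.1% lies in NDE1 as well, and reads there were dropped.

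The chains and the kinase that act on this myosin had positive changes that missed the threshold. MYL9, the regulatory light chain, averaged 6717 ± 5611 CPM in steers and 1526 ± 604 CPM in calves (SD, n = 4 each), a log2 change of 2.14 ± 0.69 (edgeR adjusted p = 0.0605). MYLK, the kinase that phosphorylates it, had a change of 1.54 ± 0.51 (edgeR adjusted p = 0.0682). MYL6, the essential light chain, which non-muscle cells use too, had 1.15 ± 0.49 (edgeR adjusted p = 0.136). Steer 4 was inside the calf range for MYL9 and MYLK and below it for MYL6. For MYLK steer 1 was inside that range too, at 718 CPM, against 319 to 888 CPM in calves. Without steer 4 the 3 genes were called, with changes of 2.50, 1.78 and 1.46.

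Thin filament proteins sit along actin and tune its use by myosin, and 3 of 7 rose (42.9%, against 7.70% of all tested genes). CALD1, caldesmon (chromosome 4, 98449568 to 98681120, plus strand), had 595, 1298, 1137 and 310 CPM in steers 1 to 4, against 167, 308, 108 and 133 CPM in calves 1 to 4. The groups did not overlap, by a narrow margin between steer 4 and calf 2. Its log2 change was 2.22 ± 0.50 (edgeR adjusted p = 0.0147).

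CNN1, calponin, had 8075, 13636, 6586 and 1226 CPM in steers 1 to 4, against 1732, 1174, 699 and 1630 CPM in calves 1 to 4. Steer 4 alone lay among the calves. CNN1 rose by 2.50 ± 0.64 on the log2 scale (edgeR adjusted p = 0.0251), and LMOD1, leiomodin, which starts new actin filaments, by 1.89 ± 0.57 (edgeR adjusted p = 0.0480). TAGLN, or SM22, an abundant actin-bundling protein, had 8280, 16340, 6582 and 1393 CPM in steers, against 3419, 2419, 978 and 2977 CPM in calves. It was not called (log2 change 1.73 ± 0.66, edgeR adjusted p = 0.103). The tropomyosins TPM1 and TPM2 and the smoothelin SMTN had changes of 1.02, 1.67 and 1.44 with adjusted p of 0.184, 0.107 and 0.0892. Without steer 4, TAGLN, TPM1, TPM2 and SMTN were called as higher. A neighbouring locus shares 27.2% of the TPM1 span.

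Both intermediate filament genes rose, with the largest fitted rises of the 35 tested genes. DES (chromosome 2, 107351886 to 107358961, plus strand) encodes desmin, which links dense bodies and membrane. It had 27906, 54578, 24672 and 4482 CPM in steers 1 to 4, against 4528, 3474, 1132 and 3261 CPM in calves 1 to 4. Steer 4 was just below calf 1, and the other steers were far above every calf. DES rose by 3.17 ± 0.73 on the log2 scale (edgeR adjusted p = 0.0162), and by 3.53 without steer 4. It alone took 4.63% of all counts in steer 2, against 0.440% in the calf with most.

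SYNM (chromosome 21, 7579409 to 7606604, minus strand) encodes synemin, a partner of desmin in the same filaments. Its levels were 711, 2168, 2277 and 545 CPM in steers 1 to 4, against 133, 206, 87.4 and 86.4 CPM in calves 1 to 4. Even the lowest steer was above the highest calf. SYNM rose by 3.47 ± 0.56 (edgeR adjusted p = 0.00334).

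Set against other genes of the same animal, DES and SYNM gave ratios that set the groups apart for some partners and not for others. DES reached 4.07, 4.02, 4.25 and 3.62 times the CPM of ACTG2 in steers 1 to 4, against 0.950, 1.37, 0.898 and 1.11 times in calves 1 to 4. The DES to TAGLN ratio was 3.42 ± 0.23 in steers and 1.25 ± 0.16 in calves (SD, n = 4 each). These ratios compare animals and not the amounts of the 2 genes, since CPM is not per length. The groups did not overlap in either ratio, although the level of DES itself differed 12.2-fold among steers. SYNM was 0.557, 0.758, 0.695 and 0.499 of MYH11 in steers 1 to 4, against 0.229, 0.231, 0.233 and 0.264 in calves 1 to 4, again without overlap. For DES over MYH11 the groups overlapped, at 4.10 to 21.9 in steers and 3.03 to 9.96 in calves, with steers 3 and 4 inside the calf range. SYNM over DES overlapped too, at 0.0255 to 0.122 in steers and 0.0265 to 0.0772 in calves. These 6 pairs, ACTA2 over ACTG2 among them, were chosen after the levels were seen and carry no test.

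**Figure D3:**
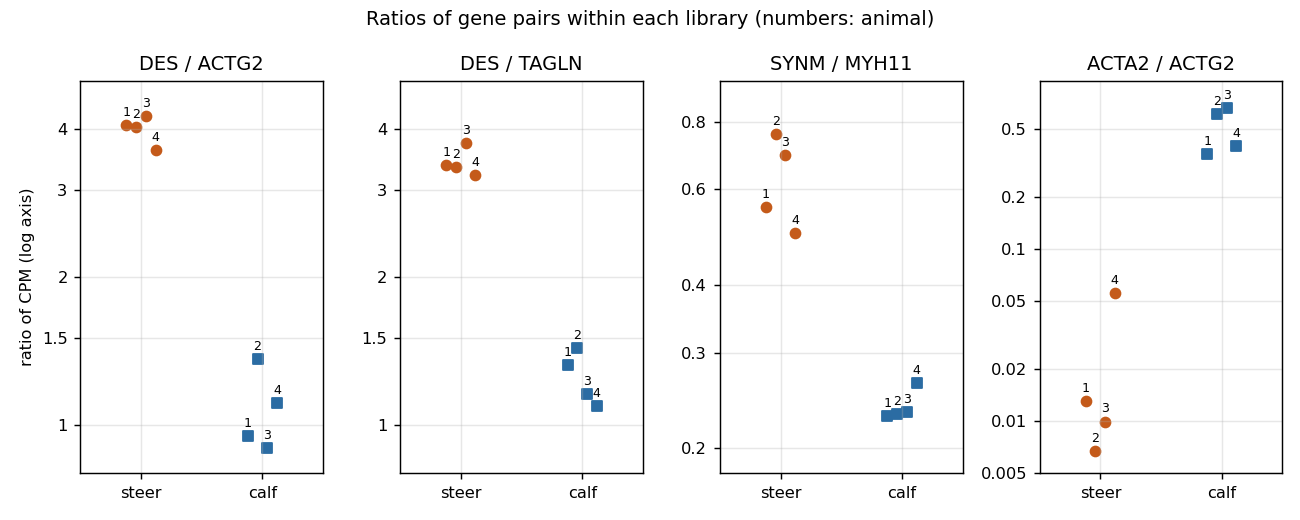
Ratio of the CPM of 4 gene pairs within each library on log axes, steers left and calves right, with the number of the animal beside each point. The groups are apart in all 4 panels, steers being above calves for DES over ACTG2, DES over TAGLN and SYNM over MYH11 and below them for ACTA2 over ACTG2.

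All 3 tested actin crosslinkers rose, against 7.70% of all tested genes. FLNA, filamin A, on chromosome X, had 9425, 21805, 9916 and 2682 CPM in steers 1 to 4, against 3533, 3232, 1418 and 3313 CPM in calves 1 to 4. Its change of 1.93 ± 0.59 passed narrowly (edgeR adjusted p = 0.0495). FLNC, the filamin of muscle, had 827, 1734, 1267 and 220 CPM in steers, against 223, 317, 115 and 209 CPM in calves, a rise of 2.23 ± 0.57 (edgeR adjusted p = 0.0246). In both filamins steer 4 lay among the calves. ACTN1, an alpha-actinin that ties actin filaments together, rose by 1.52 ± 0.44 (edgeR adjusted p = 0.0395).

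Of the PDZ and LIM proteins, adaptors at dense bodies and adhesion sites, 1 of 6 rose (16.7%, against 7.70% of all tested genes). PDLIM3 had 176, 473, 431 and 120 CPM in steers 1 to 4, against 64.6, 129, 70.1 and 59.4 CPM in calves 1 to 4, so steer 4 overlapped with calf 2 only. The log2 change was 1.89 ± 0.47 (edgeR adjusted p = 0.0221). LPP, a partner of alpha-actinin, missed the threshold (1.47 ± 0.45, edgeR adjusted p = 0.0503), and was called without steer 1, steer 4 or calf 2. CSRP1, a LIM protein of smooth muscle, averaged 5418 ± 4676 CPM in steers and 1473 ± 573 CPM in calves (edgeR adjusted p = 0.0843). TGFB1I1 (Hic-5) and PDLIM7 (enigma) had changes of 0.97 and 0.62, with adjusted p of 0.250 and 0.429. LDB3, best known from the Z-disc of striated muscle, was low in all libraries, at 2.35 to 4.84 CPM in steers and 2.48 to 4.56 CPM in calves. CSRP1 and TGFB1I1 were called as higher without steer 4.

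None of the 5 adhesion and membrane genes was called. VCL (vinculin) and TLN1 (talin), which couple actin to integrins, had changes of 0.69 ± 0.42 and 1.05 ± 0.43 (edgeR adjusted p = 0.300 and 0.124). PGM5, which has lost its enzyme role and sits at adhesion sites, had 0.78, and CAV1, the coat protein of caveolae, had 0.60. The integrin ITGA8 was at 0.450 to 1.66 CPM in steers and 0.926 to 3.40 CPM in calves, with 50.7% of its span in another gene. TLN1 was the 1 gene of this group called without steer 4 (change 1.31).

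JPH2, junctophilin, which holds calcium stores near the cell membrane, had 54.1, 187, 125 and 28.6 CPM in steers 1 to 4, against 28.4, 47.0, 20.2 and 36.6 CPM in calves 1 to 4 (log2 change 1.58 ± 0.53, edgeR adjusted p = 0.0689). Small heat shock proteins guard filaments under strain, and 2 of 3 rose (66.7%, against 7.70% of all tested genes). HSPB6 rose by 1.92 ± 0.58, its edgeR adjusted p of 0.05 lying just under the threshold before rounding, and HSPB8 by 1.64 ± 0.46 (edgeR adjusted p = 0.0360). HSPB7 averaged 42.2 ± 30.3 CPM in steers and 9.64 ± 5.84 CPM in calves (edgeR adjusted p = 0.0546). JPH2 and HSPB7 were called without steer 4.

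The transcription factors behind these genes were not called. MYOCD, myocardin, had 13.5, 40.7, 25.9 and 8.98 CPM in steers 1 to 4, against 13.5, 17.7, 19.1 and 11.3 CPM in calves 1 to 4. The range of the steers held that of the calves. Its log2 change was 0.53 ± 0.43 (edgeR adjusted p = 0.438), and 24.6% of its span is shared with other loci. SRF had 36.0, 97.0, 111 and 39.0 CPM in steers, against 32.5, 47.3, 30.6 and 25.5 CPM in calves, and steers 1 and 4 fell within the calf range. The change of SRF was 1.06 ± 0.39 (edgeR adjusted p = 0.0947), and 1.26 without steer 4, where it was called (adjusted p = 0.0424).

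Departure from the common pattern was set at a distance of more than 1 on the log2 scale from the median change of 1.54. By that measure 6 genes left the pattern between the groups. SYNM and DES lay above it, by 1.94 and 1.63. Below it, the distance was -5.63 for ACTA2, -2.42 for ITGA8, -1.81 for LDB3 and -1.01 for MYOCD. The nearest genes inside were CNN1, at 0.96, and CAV1, at -0.94. At a distance of 1.5 the count was 5. Measured against the median of the actin, myosin and thin filament genes only, it was 8.

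Set against the median of the 35 genes in the same library, the groups lay apart with steers above for 2 genes, DES and SYNM (5.71%, against 0.508% of all tested genes). They lay apart with steers below for 10 genes (28.6%, against 22.5% of all tested genes). Because the median of the 35 genes was itself higher in steers 1 to 3 than in any calf, this centring moves other genes down in steers, and nothing is read from the shares over all genes. Among those 10, ACTA2 had a relative log2 level of -2.99 ± 1.01 in steers and 2.63 ± 0.27 in calves (SD, n = 4 each). PDLIM7 was at -0.11 ± 0.21 in steers and 1.1 ± 0.54 in calves. MYOCD was at -4.99 ± 0.35 in steers and -3.75 ± 0.78 in calves. FLNA, LMOD1 and HSPB6 moved with the median, their relative levels differing between steers and calves by 0.11, 0.05 and 0.06.

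Within each group the genes shared part of their variation between animals. A shift common to the 35 genes, found by median polish of log2 CPM, was -0.20, 0.91, 0.26 and -1.61 in steers 1 to 4 and 0.10, 0.53, -0.61 and -0.04 in calves 1 to 4. Steer 4 thus held about 0.329 of the level at the centre of its group, and steer 2 about 1.88 times it. After this shift was removed, 3 genes still deviated by more than 1 in a steer, all in steer 4, namely ITGA8 (1.81), ACTA2 (1.58) and LDB3. All 3 lay above the shared pattern there, as they did not share the full shift of -1.61. None had its highest steer level in steer 4. There ITGA8 was at 1.03 CPM, ACTA2 at 69.2 CPM and LDB3 at 2.35 CPM, the lowest LDB3 level of the steers. In calves 2 genes did so, MYOCD in calf 3 (1.24) and MYL6 in calf 2 (-1.05).

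The remaining deviations moved with the length of the gene. For steer 3 minus steer 1 the median log2 difference was -0.26 over the 10 genes with a counted span under 10 kb, such as MYL9 and TAGLN. It was 0.61 over 17 genes of 10 to 100 kb, and 1.38 over the 8 above 100 kb, such as MYLK and LPP. Across the 35 genes the difference correlated with log10 span at Pearson 0.64 and Spearman 0.61, as a description only, because the genes share the same libraries. Calf 2 against calf 4 gave -0.29, 0.43 and 1.20 over the same 3 span classes. SRF, at 7521 bases, had the deviations of the long genes in all 4 steers. Over all tested genes, log2 CPM per 10-fold span changed by -0.27, -0.05, 0.08 and 0.04 in steers 1 to 4 and by -0.04, 0.28, 0.02 and -0.05 in calves 1 to 4. The part of RNA quality or library preparation in these values was not tested. With this slope as a covariate, added after the values were seen, 11 genes were called higher (10.2% of all tested genes), ACTA2 stayed the 1 called lower, and the median change was 1.65. CNN1, FLNA, LMOD1 and HSPB6 lost their calls in that fit, and MYLK, LPP and SRF gained one.

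**Figure D4:**
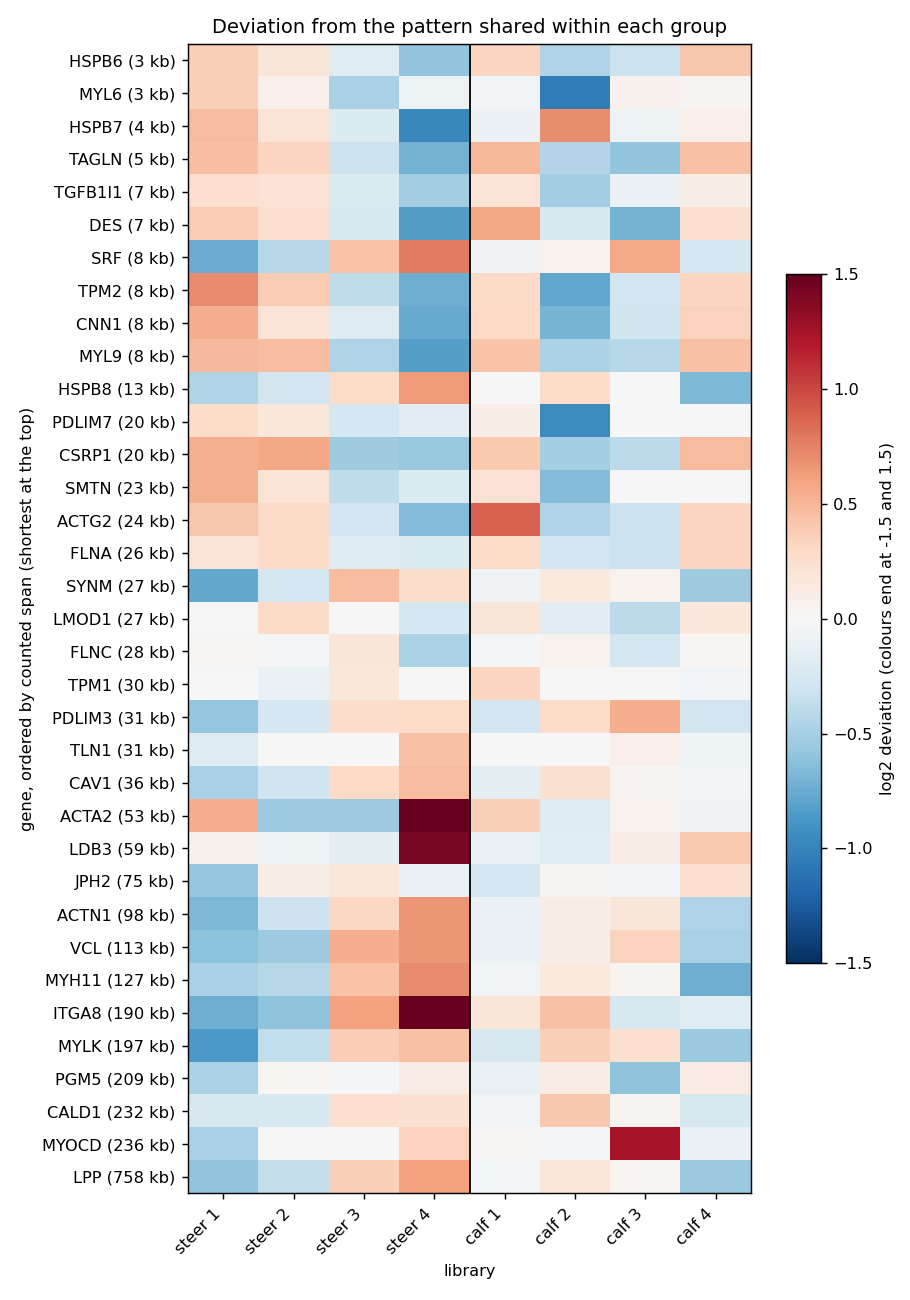
Log2 deviation of each of the 35 tested genes from its own level and the shift of its library, found within each group, with genes ordered by counted span from HSPB6 at the top to LPP at the bottom, and steers left of calves. Most short genes are red in steers 1 and 2 and blue in steer 4, most long genes the reverse, and ITGA8, ACTA2 and LDB3 are darkest in steer 4.

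Genes that surround the contractile apparatus came from lists drawn up with earlier results of these data known. Of 34 tested adhesion and costamere partners 4 rose (11.8%, against 7.70% of all tested genes) and none fell (median log2 change 0.77). CRYAB, a chaperone of desmin, rose by 1.59 ± 0.29 and TNS1, tensin, by 2.28 ± 0.51, and both were called whichever library was left out. The integrin ITGA1 rose by 1.56 ± 0.41, a call lost without steer 2, steer 3, calf 1, calf 3 or calf 4. Of 30 tested genes of contraction signalling 1 rose (3.33%, against 7.70%) and 2 fell (6.67%, against 9.16%), with a median change of 0.58. KCNMA1, the large-conductance potassium channel that relaxes smooth muscle, had 40.1, 133, 128 and 33.5 CPM in steers 1 to 4, against 14.6, 32.4, 16.9 and 12 CPM in calves 1 to 4. Its groups did not overlap (log2 change 2.14 ± 0.52, edgeR adjusted p = 0.0203), but the call was lost without steer 3, calf 1, calf 3 or calf 4. The ATP-gated channel P2RX1 and the endothelin receptor EDNRB fell by 2.52 ± 0.59 and 2.43 ± 0.57, and P2RX1 lost its call without steer 3, calf 1 or calf 4. P2RX1 had 0.111 to 0.550 CPM in steers and 0.870 to 2.76 CPM in calves. EDNRB had 0.325 to 2.16 CPM in steers and 4.37 to 9.87 CPM in calves. With so few steer counts the sizes of both falls are uncertain. KCNMB1 and PLN lie wholly inside other spans and could not be counted.

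Counterparts and relatives of the contractile proteins, many but not all of them non-muscle forms, had a median change of -0.29 over 20 tested genes. Of these 1 rose (5%, against 7.70%) and 3 fell (15%, against 9.16%). VIM, vimentin, the intermediate filament protein of mesenchymal cells, averaged 112 ± 15.5 CPM in steers and 285 ± 60.3 CPM in calves (SD, n = 4 each). It fell by 1.34 ± 0.23 (edgeR adjusted p = 0.00418), opposite to DES and SYNM. SMTNL2, a smoothelin relative, fell by 2.74 ± 0.30 and CSRP2, a relative of CSRP1, by 1.37 ± 0.21, while the light chain MYL6B rose by 2.39 ± 0.44. All 4 genes were called whichever library was left out.

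Among 26 tested regulators of SRF and myocardin 3 rose (11.5%, against 7.70%) and 4 fell (15.4%, against 9.16%). HAND1 had 4.05, 16.7, 23.8 and 2.10 CPM in steers 1 to 4, against 0.0932, 0.167, 0 and 0 CPM in calves 1 to 4 (edgeR adjusted p = 0.00291), and with so few calf counts the size of its rise is uncertain. BARX1, a stomach mesenchyme factor, rose by 2.30 ± 0.63 although steer 4 lay among the calves, a call lost in all left-out fits but those without steer 4 or calf 2. TEAD1, a partner of YAP, rose by 1.16 ± 0.31 and lost its call without steer 2, steer 3, calf 1, calf 3 or calf 4. GATA6, a factor of mesoderm and gut, fell by 2.18 ± 0.40 and was called whichever library was left out. HEYL, a Notch target, fell by 1.62 ± 0.39 and CRIP2 by 1.07 ± 0.28. Their calls were lost without steer 1, steer 2 or calf 4 for HEYL and without steer 2, steer 3, calf 1 or calf 3 for CRIP2. The SRF coactivators, listed in the table as MKL1 and MKL2, were not called (changes of -0.12 and 0.46).

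Markers of other cell types were read beside these genes. The summed levels of 2 marker sets set the groups apart, those of interstitial cells of Cajal, mostly through THBS4, and of enteric neurons and glia. The other sums overlapped, although some single genes in them did not. The part of these cell types in the results was not tested. Of 13 fibroblast markers none rose and 3 fell (23.1%, against 9.16% of all tested genes), with summed levels of 1222 to 2809 CPM in steers and 2438 to 6553 CPM in calves. Of 12 endothelial markers none rose and 3 fell (25%; 306 to 438 CPM in steers, 415 to 864 CPM in calves). Pericyte and vascular muscle markers, which bear on ACTA2, summed to 389 to 733 CPM in steers and 422 to 588 CPM in calves. Of these 11 genes 1 was called (9.09%, against 9.16% of all tested genes), NOTCH3, which fell by 1.72 ± 0.32 on the log2 scale. Basal epithelial markers summed to 12120 to 17828 CPM in steers and 14834 to 20299 CPM in calves. Of 12 tested 1 rose (8.33%, against 7.70%) and 2 fell (16.7%, against 9.16%), and DSG3 lies wholly inside another span and could not be counted. Interstitial cells of Cajal are the pacemakers of gut muscle. Their markers summed to 57.7 to 159 CPM in steers and 14.6 to 26.6 CPM in calves. Of the 6 genes 1 rose, THBS4 (16.7%, against 7.70% of all tested genes), and 1 fell, HCN4 (16.7%, against 9.16%). THBS4 had 47.7 to 133 CPM in steers, most of the sum there, and 3.11 to 7.73 CPM in calves. KIT, ANO1, ETV1 and PRKCQ overlapped between the groups and were not called. Of 17 markers of enteric neurons and glia none rose and 7 fell (41.2%; 22.1 to 38.4 CPM in steers, 66.4 to 93.8 CPM in calves). Mesothelial markers summed to 56.8 to 136 CPM in steers and 97.6 to 187 CPM in calves. Of 5 tested 1 rose, UPK3B (20%, against 7.70%), and 2 fell, UPK1B and KRT18 (40%, against 9.16%). UPK1B had 33.8 to 130 CPM in calves and at most 0.771 CPM in steers. Leukocyte markers summed to 204 to 408 CPM in steers and 76.4 to 458 CPM in calves, mostly CD74, which was not called. Of 6 tested 4 rose (66.7%, against 7.70%), PTPRC, CD3E, CD2 and CSF1R, each with all steers above all calves.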

How the data were processed

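Rumen RNA of 4 steers and 4 calves was read from whole-number counts per gene name that the authors deposited without normalisation. The counts come from featureCounts 2.0.2, run by the authors on whole transcript spans, so intron reads are included, per the file headers. No strand option was set although the library protocol marks strand, both mates of a pair were counted singly, and reads lying in several genes were dropped. Trimmomatic 0.39, STAR 2.7.11a and DESeq2 1.42.0 are named per the submitters' processing notes. The labels and headers name no genome build or annotation release. Total counts were 42322022 to 54449684 per library, and no library repeated another (smallest chi-square per degree of freedom within a group 105.5).

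Tests used edgeR 4.0.16 in R 4.3.3: filterByExpr, TMM, quasi-likelihood fit with robust dispersion, over 16326 genes, log2 change as steer minus calf, SE as the change over the square root of F. Log2 CPM used a prior count of 2. The common biological coefficient of variation was 41.8%. Alternatives were other scalings, filters, DESeq2, limma-voom 3.58.1, halved counts, a replicate block and each library left out. The procedure was tested on simulated counts. All 37 genes are accounted for. Of each list of adhesion, contraction signalling, counterpart and regulator genes, the 3 called genes with the smallest adjusted p in each direction are named. Cell type marker lists are given by summed CPM and counts of called genes, and only some of their called genes are named. ACTA1 and ACTC1 are named as well. NOTCH3, MKL1, MKL2, TNNI2, TNNT3, the epithelial genes of steer 4 and the genes at 0 were added after their values were seen. The members and lists were chosen with earlier results of these data known. Replicate numbers mark different animals and were not treated as pairs.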

Additional observations from a re-analysis of the deposited data

Results flagged for a closer look

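Each group's 4 CPM values of the 35 tested genes were searched for a sample far from its group, 70 sets in all, of which chance alone flags about 1 in 20. The filamin FLNA was at 1418 CPM in calf 3, against 3232 to 3533 CPM in the other calves. Calf 3 was also the lowest calf for most of the 35 genes. Without calf 3 the log2 change of FLNA was 1.70 and its call was lost (edgeR adjusted p = 0.116). PDLIM3 was at 129 CPM in calf 2, against 59.4 to 70.1 CPM in the other calves. Without calf 2 its log2 change was 2.21 and the call held (edgeR adjusted p = 0.0200).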

How the results depend on the processing

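The median change of the 35 genes was positive in every alternative, at 1.16 to 1.80 with 1 library left out. The count of them called higher, 12 here, was 22 with DESeq2 (11.9% of all genes higher), 26 without calf 2 and steer 4 together (8.33%, a choice made after the values were seen) and 3 to 26 with 1 library left out. It was 8 with library size only (5.11%) and 9 with limma-voom (7.42%). ACTA2 was the 1 gene called lower in every alternative that kept it apart from ACTG2. Summed with ACTG2 its change of -4.10 turned to 0.73, as the sum is mostly ACTG2 in every library. ACTA2 took at most 5.29% of it in a steer and 39.8% in a calf. Over all genes 2752 were called, and 1734 to 3257 with 1 library left out. With the replicate number as a block, 6 of the 35 genes were called higher (4.81% of all genes) and 1831 genes in all. Deviations of same-numbered steers and calves correlated at -0.27 to 0.20, and those of other pairs at -0.385 to 0.339. With so few animals these values cannot settle whether the numbers pair the animals, and they say nothing on the size of effects. With 4 animals per group, the spread between steers limits what could be called.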

Other observations

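The non-muscle actins give a further reading of the actin family, chosen after their values were seen. ACTB, beta-actin, was at 4202, 7917, 5032 and 2750 CPM in steers 1 to 4, against 3169, 2284, 2049 and 2249 CPM in calves 1 to 4 (log2 change 1.03 ± 0.36, edgeR adjusted p = 0.0820). Only steer 4 overlapped with the calves. ACTG1, non-muscle gamma-actin, averaged 1692 ± 184 CPM in steers and 2028 ± 549 CPM in calves (SD, n = 4 each; log2 change -0.26 ± 0.28, edgeR adjusted p = 0.568).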
